A study of Mus musculus with 21 samples.

Results

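The 10 genes described here belong to innate sensing and were followed through sorted peritoneal B cells of WT and TET2-KO mice. They are the Toll-like receptor genes Tlr1, Tlr2, Tlr3, Tlr4, Tlr6, Tlr7 and Tlr9, the genes Cd180 and Ly86 of the RP105 receptor complex, and the adaptor gene Myd88. They are defined by name, and all 10 were found among the 56953 genes in the count files. RNA-seq was carried out on 21 libraries of C57BL/6 mice, with 4 WT and 4 TET2-KO replicates for B-1a cells, 4 and 3 for B-1b cells, and 2 and 4 for B-2 cells. TET2 is an enzyme that oxidizes methylated cytosine in DNA, and in TET2-KO mice the exons of its catalytic region are deleted in the whole animal, so the cells around the B cells lack it too. No treatment was given. The B-1 gate took cells low in IgD, CD23 and B220, which were split by CD5 into B-1a (CD5+) and B-1b (CD5-) cells.

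Toll-like receptors are transmembrane proteins that bind conserved molecules of microbes, some at the cell surface and others inside endosomes. Most of them signal through MyD88 to the transcription factor NF-kB, whereas TLR3 signals through the adaptor TRIF, encoded by Ticam1. RP105, the product of Cd180, resembles TLR4 outside the cell but lacks the inner signalling domain, and it needs MD-1, the product of Ly86, to reach the surface of B cells. Peritoneal B-1 cells are known to answer ligands of these receptors by secreting natural IgM.

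Total counts ranged from 9667187 to 24152518 per library, and the lowest was that of B-2 TET2-KO 4. The libraries were first checked against their labels. Pax5, a transcription factor that defines B cells, was counted in every library. Cd5 and Fcer2a, which encodes CD23, are the genes of 2 proteins used in the sort, and they set the TET2-KO subsets apart: Cd5 lay between 15.9 and 21.1 normalized counts (CPM, scaled to a common library size) in B-1a libraries and between 1.74 and 5.10 CPM in the others, and Fcer2a between 484 and 834 CPM in B-2 libraries and between 4.61 and 42.7 CPM in the others. The 5 libraries labelled WT 1 or WT 2 went against their labels. B-1a WT 1 and B-1b WT 2 held 815 and 598 CPM of Fcer2a, the range of the TET2-KO B-2 libraries, and B-2 WT 1 held 24.2 CPM. B-1b WT 1 held 18.7 CPM of Cd5, and B-1a WT 2 held 1.64 CPM. The 5 libraries had 18074 to 19255 genes with a count, and the other WT libraries 25898 to 29339. B-1b TET2-KO 3 and B-1a TET2-KO 4 also had few, 17816 and 18941, though their Cd5 and Fcer2a went with their labels. The labels were kept. Fold changes of the 10 genes that use these 5 libraries are, where printed, given with and without them, and not all are printed. Markers of macrophages were also counted in all libraries, 12 of 14 of them in every one, and Adgre1, Csf1r, C1qa and Timd4 were at 0 in none. The summed level of the 14 macrophage markers was 4411 to 30590 CPM. All 6 markers of mast cells were counted in every library too, at 297 to 1234 CPM summed. The sum of 7 erythroid markers ran from 0.340 to 1704 CPM and was highest in B-1a WT 1. The part of RNA from mast cells or erythroid cells in the levels of the 10 genes was not tested. Tet2 itself was counted at 8.46 to 30.3 CPM over the whole gene, with log2 fold changes in TET2-KO of 0.45 in B-1a, 0.29 in B-1b and 0.45 in B-2 cells (adjusted p = 0.689, 0.853 and 0.576, edgeR), so counts that are not split by exon did not check the genotype.

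The level of each gene was set per kilobase of exon, since a longer gene gives more fragments at the same number of transcripts. Ly86 was the most abundant of the 10 genes, with a median of 235 CPM per kb over 21 libraries, and Myd88 followed with 31.5. Tlr1 led the receptors at 14.8 CPM per kb, ahead of Cd180 at 8.50, Tlr2 at 7.69 and Tlr7 at 6.23. Lower still were Tlr4 at 2.87, Tlr6 at 1.78, Tlr9 at 0.638 and Tlr3 at 0.333 CPM per kb. The order was steady at the top, where Ly86 exceeded Myd88 in 21 of 21 libraries, Myd88 exceeded Tlr1 in 20, and Tlr1 exceeded Cd180 in 19. Cd180, Tlr2 and Tlr7 were not separated, with Cd180 above Tlr2 in 14 and Tlr2 above Tlr7 in 12 of 21 libraries, whereas Tlr7 exceeded Tlr4 in 21 of 21. Tlr4 exceeded Tlr6 in 17, Tlr6 exceeded Tlr9 in 20 and Tlr9 exceeded Tlr3 in 18 libraries. MD-1 and RP105 form a complex, yet the level per length of Ly86 was 15.9 to 56.7 times that of Cd180. Of the mouse receptors outside the 10 genes, Tlr5, which encodes the flagellin receptor, had a single count in 1 library and 0 in the other 20, and Tlr11 stayed at or below 0.494 CPM, Tlr12 at or below 2.33 CPM and Tlr8 at or below 2.92 CPM. Tlr13, a receptor for bacterial ribosomal RNA, reached 0.513 to 16.3 CPM.

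**Figure D1:**
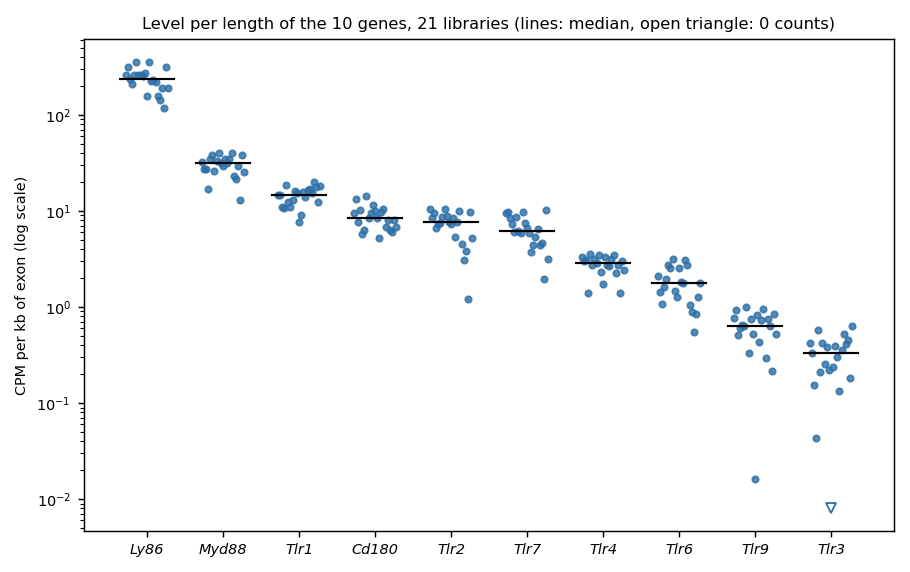
Level of each gene in CPM per kb of exon (log scale), with a point for each of the 21 libraries and a line at the median. Ly86 stands at 235 and Tlr3 at 0.333 CPM per kb, and the points of Cd180, Tlr2 and Tlr7 share a range.

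Tlr2 had the widest spread of the 10 genes between the subset means of TET2-KO libraries (1.55 on the log2 CPM scale). Its product senses bacterial lipopeptides as a pair with TLR1 or TLR6. Among TET2-KO libraries Tlr2 was counted at 31.95, 25.5, 28.8 and 20.1 CPM in B-1a cells, at 26.6, 23.3 and 21.98 CPM in B-1b cells, and at 13.7, 9.24, 11.6 and 3.66 CPM in B-2 cells. Every B-1 library stood above every B-2 library. The TET2-KO B-2 libraries also had 27669 to 35576 genes with a count, against 17816 to 28140 in the B-1 libraries, and a summed level of 6 B cell markers of 10590 to 17340 CPM against 13390 to 23540 CPM. B-2 TET2-KO 4 was at the extreme of both and had the lowest Tlr2, and the part of these differences in the level of Tlr2 was not tested. The log2 fold change of B-1a over B-2 cells was 1.45 ± 0.30 (SE; Benjamini-Hochberg adjusted p = 0.00944 by edgeR's quasi-likelihood test), and Tlr2 was the only 1 of the 10 genes to pass, against 5.82% of the 18555 genes tested. Without B-2 TET2-KO 4, the library with the lowest level and the lowest depth, the fold change was 1.19 (adjusted p = 0.00641). For B-1b over B-2 cells it was 1.29 ± 0.32, and the adjusted p of 0.0504 missed the threshold, so that 0 of 10 genes passed there, against 2.15% of all genes. It passed in that comparison without B-1a TET2-KO 4 (adjusted p = 0.0328), B-2 TET2-KO 1 (0.0496) or B-2 TET2-KO 4 (0.0464). The comparisons of B-1a and B-1b with B-2 cells share the 4 B-2 libraries and are not independent of each other.

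WT libraries placed Tlr2 at 21.9, 22.7, 26.4 and 32.02 CPM in B-1a cells, at 25.6, 16.2, 23.2 and 30.3 CPM in B-1b cells, and at 29.5 and 15.8 CPM in B-2 cells (WT 1 and WT 4). The groups overlapped, and B-2 WT 1, with its low Fcer2a, was above 3 of the 4 B-1b libraries. With all WT libraries the log2 fold change of B-1a over B-2 cells was 0.15 ± 0.29 (adjusted p = 1.00), and 0 of 10 genes passed in any comparison between WT subsets, as did 0 of 16769 genes over all, while 0.984%, 0.942% and 1.23% of genes had an unadjusted p under 0.05 for B-1a over B-2, B-1b over B-2 and B-1a over B-1b, and DESeq2 called 2, 1 and 0 genes (0.00514%, 0.00257% and 0%), none of them of the 10. Without the libraries labelled WT 1 and WT 2 it was 0.89 ± 0.23 (adjusted p = 0.0132), with B-2 WT 4 as the lone B-2 library, assumed to vary like the others.

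The promoters of Tlr2 and Tlr1 are shown because the products pair at the cell surface while the fitted differences of their transcripts between B-1a and B-2 cells had opposite signs. They are the 250 bases before the transcription start of the GENCODE vM39 canonical transcript, read 5′ to 3′ on the gene's strand of GRCm39, at chr3:83749075-83749324 (minus strand) for Tlr2 and chr5:65090926-65091175 (minus strand) for Tlr1. Capitals mark matches to GAGGAA (an ETS-type core read by PU.1), to CACGTG (an E-box), to GGGA and CC with any 4 bases between them (an NF-kB-type site) or to GAAA and GAAA with any 2 bases between them (an interferon response element), searched on both strands.
Tlr2: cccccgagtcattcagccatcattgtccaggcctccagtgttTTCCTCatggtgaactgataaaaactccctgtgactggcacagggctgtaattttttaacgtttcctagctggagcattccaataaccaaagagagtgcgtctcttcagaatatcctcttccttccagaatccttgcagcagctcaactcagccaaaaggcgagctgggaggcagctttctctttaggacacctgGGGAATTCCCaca
Tlr1: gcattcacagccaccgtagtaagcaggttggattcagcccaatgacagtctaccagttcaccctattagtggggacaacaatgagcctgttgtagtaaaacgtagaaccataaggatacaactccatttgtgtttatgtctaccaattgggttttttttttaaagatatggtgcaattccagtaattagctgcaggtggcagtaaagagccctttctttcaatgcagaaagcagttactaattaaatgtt
The Tlr2 promoter held TTCCTC, the reverse complement of GAGGAA, from 208 to 203 bases before the start, and GGGAATTCCC, which reads alike on both strands, from 13 to 4 bases before it. No other match overlapped these. The Tlr1 promoter held 0 matches. Of all 21770 promoters of this length, 22.9% held GAGGAA, 18.2% the NF-kB-type site, 6.26% CACGTG and 3.32% the interferon response element. Among the other 8 genes Tlr3 matched the NF-kB-type site at 2 places, Tlr4 and Tlr9 matched GAGGAA once each, and Tlr6, Tlr7, Cd180, Ly86 and Myd88 matched none. A match is a description of the letters and does not show binding.

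Tlr1 and Tlr6 encode the partners of TLR2, for triacylated and diacylated lipopeptides respectively, and are close paralogs that lie side by side on chromosome 5 (Tlr1 from 65082022 to 65090906, Tlr6 from 65109374 to 65117440, GRCm39). Fragments that align to several places were not counted, which can lower the counts of both. Among TET2-KO libraries Tlr1 was counted at 49.4, 49.2, 37.3 and 35.9 CPM in B-1a cells, at 54.8, 51.3 and 25.6 CPM in B-1b cells, and at 56.2, 51.2, 66.5 and 59.5 CPM in B-2 cells. All 4 B-1a libraries were below the 4 B-2 libraries, which held for 10.1% of all genes tested. The log2 fold change of B-1a over B-2 cells was -0.47 ± 0.23 (adjusted p = 0.208). Tlr6 lay the other way, with 7.94, 5.32, 3.98 and 6.04 CPM in B-1a cells, 5.49, 4.71 and 9.46 CPM in B-1b cells, and 3.95, 3.32, 2.04 and 3.18 CPM in B-2 cells. The lowest B-1a library, at 3.98 CPM, and the highest B-2 library, at 3.95 CPM, lay side by side, and the fold changes were 0.86 ± 0.39 for B-1a and 1.02 ± 0.42 for B-1b over B-2 cells (adjusted p = 0.190 and 0.203). Set against each other per length, Tlr1 exceeded Tlr2 by 3.69 to 14.7 times (median 5.08) in TET2-KO B-2 libraries. The highest of these was B-2 TET2-KO 4, with 54 counts of Tlr2. Tlr1 exceeded Tlr2 by 1.17 to 1.74 times in TET2-KO B-1a libraries and by 1.05 to 1.98 times in TET2-KO B-1b libraries. In B-2 WT 4 the ratio was 3.46, and in WT 3 and WT 4 it was 1.22 to 1.25 in B-1a and 1.66 to 1.84 in B-1b cells.

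Tlr4 encodes the receptor for lipopolysaccharide, which it binds together with MD-2, the product of Ly96. The Tlr4 gene overlaps Gm57137 on the same strand. The level of Tlr4 in TET2-KO libraries was 18.5, 16.9, 17.0 and 7.86 CPM in B-1a cells, 19.4, 13.0 and 9.75 CPM in B-1b cells, and 19.4, 12.6, 15.1 and 7.79 CPM in B-2 cells. The subsets overlapped throughout, and the fold change was 0.11 ± 0.32 for B-1a over B-2 cells and 0.00 ± 0.35 for B-1b over B-2 cells. Its lowest levels were in the 3 libraries that also had the lowest sums of macrophage markers, B-1a TET2-KO 4 with 4887 CPM, B-2 TET2-KO 4 with 4411 CPM and B-1b TET2-KO 3 with 6422 CPM. Correlations were taken with the sum of the macrophage markers other than Lyz2, on the log2 scale. Over the 21 libraries, which differ in depth and share these groups, the correlation of Tlr4 with that sum was r = 0.75 (rho = 0.63). It was 0.94 for Cd14, a co-receptor of TLR4 that macrophages carry, and 0.80 for Tlr13. With Lyz2 included, the sum reached 11340 to 30590 CPM in WT and 4887 to 29150 CPM in TET2-KO B-1a libraries. It was 12820 to 17610 and 6422 to 15400 CPM in B-1b libraries, and 9592 to 25920 and 4411 to 20030 CPM in B-2 libraries. For Tlr3, which had few counts, the correlation was 0.52 (rho = 0.55), and for Tlr2 it was 0.40. For Myd88 the correlation was 0.38, for Tlr1 0.33, for Tlr9 0.30 and for Tlr7 0.27. For Ly86 the correlation was 0.22, for Tlr6 0.15 and for Cd180 0.09. The part of macrophage RNA in these levels was not tested.

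**Figure D2:**
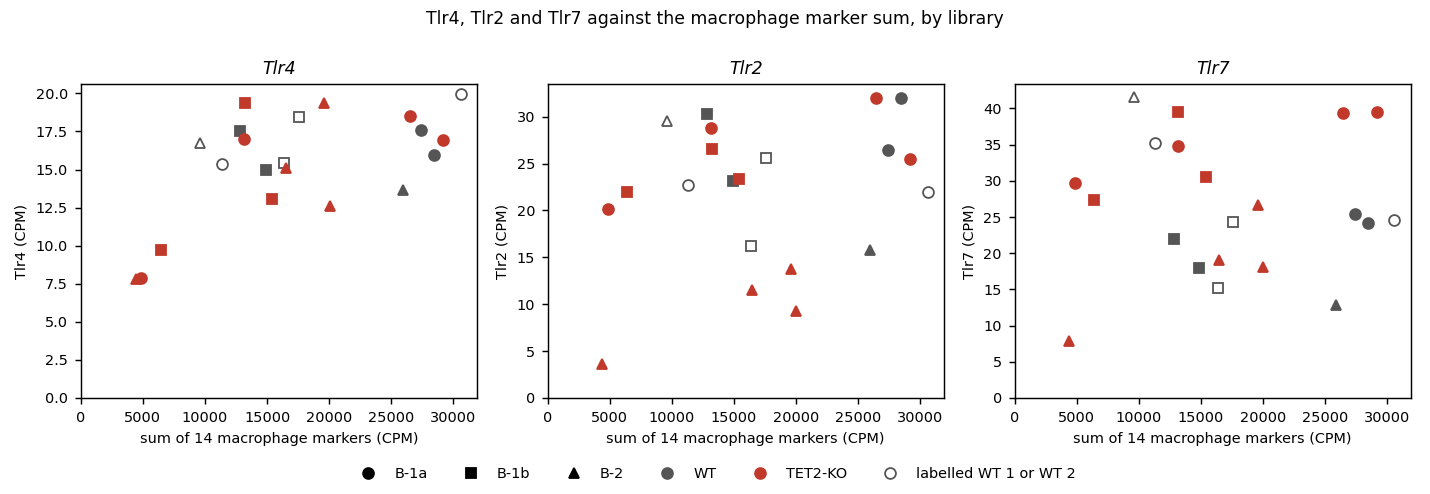
Level of Tlr4, Tlr2 and Tlr7 (CPM) against the summed level of 14 macrophage markers (CPM), with a symbol for each subset, red for TET2-KO, grey for WT and open symbols for libraries labelled WT 1 or WT 2. The 3 libraries with the lowest sums have the lowest Tlr4 (7.79 to 9.75 CPM), while 2 of them, of B-1 cells, hold 20.11 and 21.98 CPM of Tlr2.

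Tlr7, Tlr3 and Tlr9 encode endosomal receptors for nucleic acids: single-stranded RNA, double-stranded RNA and DNA with unmethylated CpG. Tlr7 lies on the X chromosome (166087925 to 166113554) and was the most abundant of the 3. It was counted at 39.4, 39.6, 34.8 and 29.7 CPM in TET2-KO B-1a cells, at 39.5, 30.6 and 27.4 CPM in TET2-KO B-1b cells, and at 26.6, 18.1, 19.1 and 7.92 CPM in TET2-KO B-2 cells. All 7 B-1 libraries lay above the 4 B-2 libraries, and the fold changes were 0.97 ± 0.28 for B-1a over B-2 cells (adjusted p = 0.0529) and 0.82 ± 0.30 for B-1b over B-2 cells (adjusted p = 0.160). The first of these passed without B-1a TET2-KO 4 (adjusted p = 0.0479), B-1b TET2-KO 3 (0.0392) or B-2 TET2-KO 1 (0.0278). WT libraries held 24.6, 35.2, 25.4 and 24.2 CPM in B-1a cells, 24.4, 15.2, 18.0 and 21.9 CPM in B-1b cells, and 41.6 and 12.8 CPM in B-2 cells, with WT 1 the higher. Between B-1a and B-2 cells the fold change was -0.02 ± 0.37 with all WT libraries and 0.95 ± 0.23 without WT 1 and WT 2 (adjusted p = 1.00 and 0.00915).

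Tlr3 and Tlr9 were near the lower end of what was counted. Tlr3 ranged from 0 to 3.35 CPM and Tlr9 from 0.0567 to 3.52 CPM over the 21 libraries, with at most 62 and 63 counts. B-1b TET2-KO 3 held 0 counts of Tlr3 and 1 count of Tlr9, where a count of 0 allows up to 3 counts (counting error alone). Divided by total counts, without the scaling used for the other CPM, 3 counts equal 0.124 to 0.310 CPM by library. That range cannot be set directly against the scaled CPM given here. For Tlr3 TET2-KO B-2 libraries held 1.86, 2.75, 2.15 and 2.37 CPM, B-1a libraries 2.21, 1.73, 0.807 and 0.228 CPM, and the fold change of -0.91 ± 0.95 was within the spread. The gene overlaps Gm45542 on the other strand, and the counting did not use strand. The fold change of Tlr9 was 0.56 ± 0.80 for B-1a and -0.18 ± 0.87 for B-1b over B-2 cells, each smaller than its SE. In TET2-KO B-1b cells Tlr9 ran from 0.0567 to 2.60 CPM.

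Cd180 and Ly86, the chains of the RP105 complex, are both on chromosome 13 (Cd180 from 102830066 to 102876137, Ly86 from 37529184 to 37603012). Cd180 was counted at 43.4, 59.9, 34.5 and 46.1 CPM in TET2-KO B-1a cells, at 43.0, 51.9 and 45.3 CPM in B-1b cells, and at 30.8, 36.6, 28.8 and 27.0 CPM in B-2 cells. The B-1b libraries lay above the B-2 libraries, while 1 B-1a library, at 34.5 CPM, was below the highest B-2 library. Fold changes were 0.54 ± 0.19 for B-1a and 0.56 ± 0.20 for B-1b over B-2 cells (adjusted p = 0.102 and 0.165). The gene overlaps Mast4 on the other strand. Ly86 was counted at 951, 1150, 854 and 761 CPM in TET2-KO B-1a cells, at 919, 987 and 580 CPM in B-1b cells, and at 578, 523, 697 and 433 CPM in B-2 cells. The B-1a libraries were above the B-2 libraries, the B-1b libraries overlapped them, and the fold changes were 0.71 ± 0.22 and 0.53 ± 0.23 (adjusted p = 0.0700 and 0.228). Without B-1b TET2-KO 3 the first of these passed (0.66, adjusted p = 0.0299).

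Myd88, which encodes the adaptor, was counted at 84.4, 70.1, 70.5 and 44.2 CPM in TET2-KO B-1a cells, at 104, 82.0 and 75.5 CPM in B-1b cells, and at 59.9, 56.2, 75.6 and 33.5 CPM in B-2 cells. The groups overlapped. The fold change was 0.23 ± 0.24 for B-1a and 0.60 ± 0.26 for B-1b over B-2 cells (adjusted p = 0.602 and 0.226). The gene overlaps Slc22a14 and Acaa1a.

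Read over the 10 genes, 8 were higher in TET2-KO B-1a than B-2 libraries by fitted value, and their median log2 fold change was 0.55 beside -0.05 over all genes tested. For B-1b over B-2 cells 6 were higher, with medians of 0.55 and -0.10. Tlr2, Tlr6, Tlr7 and Ly86 in B-1a cells, and Tlr2, Tlr6, Tlr7 and Cd180 in B-1b cells, lay above B-2 cells with no overlap, which was so for 8.90% and 7.99% of all genes. Unadjusted p was under 0.05 for 5 of 10 genes in B-1a and 6 of 10 in B-1b cells, where 24.7% and 19.6% of all genes were. Between B-1a and B-1b cells of TET2-KO mice 0 of 10 genes passed (0.205% of all genes) and 0 had an unadjusted p under 0.05, where 5.78% of all genes did, and the largest fitted difference with an SE under 0.30 was that of Myd88 (-0.37 ± 0.26). Among WT libraries without WT 1 and WT 2, 3 of 10 genes passed for B-1a over B-2 cells, against 7.16% of all genes (6 of 10 and 18.6% were under 0.05 unadjusted): Tlr2, Tlr7 and, lower in B-1a, Tlr1 (-0.59 ± 0.18, adjusted p = 0.0457, and -0.20 ± 0.28 with all WT libraries). None of the 10 passed for B-1b over B-2 cells (5.53% of all genes) or B-1a over B-1b cells (3.22%), and unadjusted p was under 0.05 for 5 and 2 of them, where 18.2% and 14.5% of all genes were. Whether the subset differences of WT and TET2-KO mice themselves differ was not tested.

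**Figure D3:**
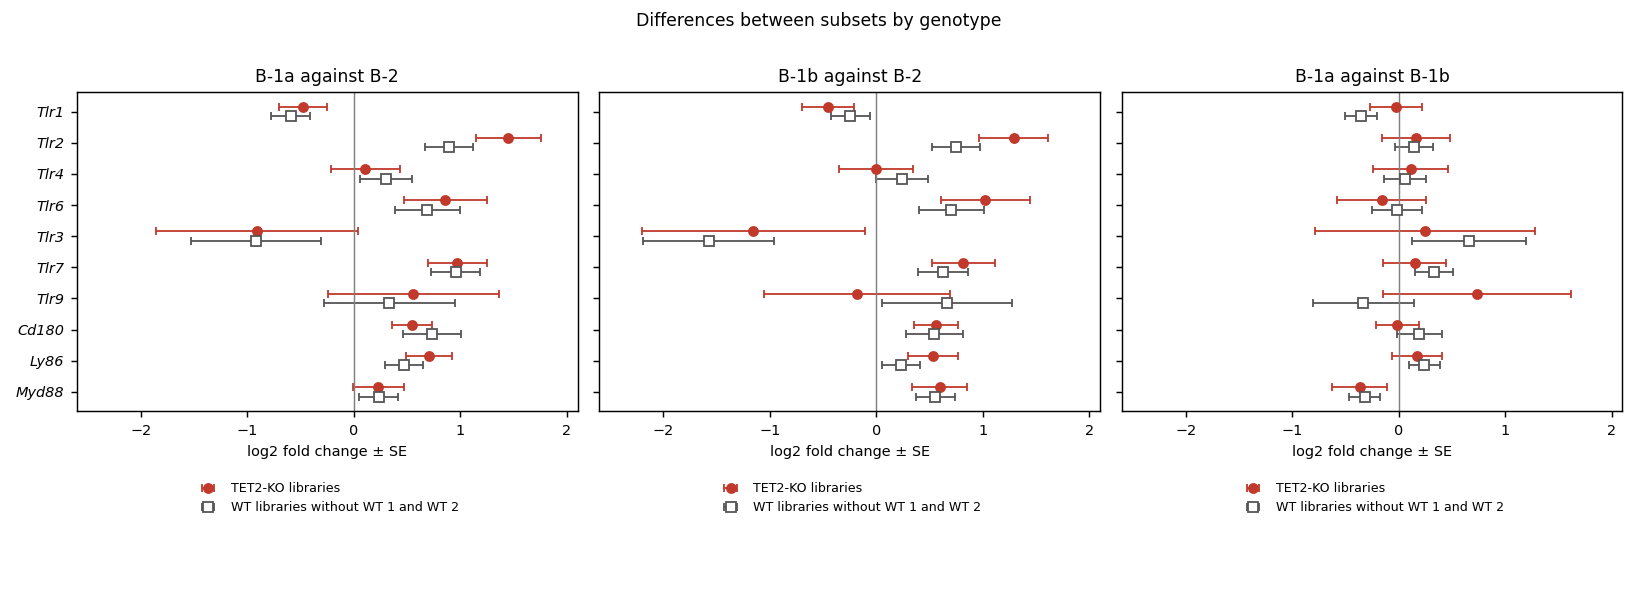
Log2 fold change ± SE (edgeR) of each gene between subsets, with filled circles for TET2-KO libraries and open squares for WT libraries without WT 1 and WT 2, where B-2 is 1 library. In B-1a against B-2, Tlr2 stands at 1.45 and 0.89, Tlr7 at 0.97 and 0.95, and Tlr1 at -0.47 and -0.59.

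TET2-KO and WT cells were compared within each subset to find which genes respond to loss of TET2. In B-1a cells 0 of 10 genes passed, against 0.0503% of the 13923 genes tested, and DESeq2 called 186 genes (1.02%) and none of the 10. Tlr7 and Tlr6 had an unadjusted p under 0.05 (7.85% of all genes did). Tlr7 was 24.2 to 35.2 CPM in the 4 WT and 29.7 to 39.6 CPM in the 4 TET2-KO libraries listed above, groups that overlapped only through B-1a WT 2, and the log2 fold change was 0.42 ± 0.16 (adjusted p = 0.622 by edgeR). It was 0.54 ± 0.18 without WT 1 and WT 2 (adjusted p = 1.00). Tlr6 was 7.24, 10.2, 9.45 and 11.8 CPM in WT B-1a cells, where WT 1 lay within the TET2-KO range. Its log2 fold change was -0.70 ± 0.27 (adjusted p = 0.622) and -0.86 ± 0.33 without WT 1 and WT 2. In that smaller fit 0 genes passed over all, and the same 2 of the 10 had an unadjusted p under 0.05, against 3.16% of genes.

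In B-1b cells 0 of 10 genes passed and 0 of 14368 genes passed over all, with 5.48% of genes at an unadjusted p under 0.05. DESeq2 called 60 genes (0.398%) and none of the 10. Tlr7 was the gene of the 10 with an unadjusted p under 0.05: its 3 TET2-KO libraries lay above its 4 WT libraries, as was so for 3.74% of all genes. The log2 fold change was 0.73 ± 0.21 (adjusted p = 0.838), and it was 0.70 ± 0.25 without WT 1 and WT 2, where 0 genes passed and unadjusted p was under 0.05 for Tlr7 alone of the 10, against 2.32% of genes. The effect on Tlr7 in B-1a minus that in B-1b cells was -0.32 ± 0.27 (adjusted p = 1.00) and -0.17 ± 0.30 without WT 1 and WT 2, and 0 of 10 genes passed that test, as did 0 of 15972 genes, where 1.57% of genes and none of the 10 had an unadjusted p under 0.05. DESeq2 called 1 gene there (0.00241%), and without WT 1 and WT 2 edgeR gave 0 genes, with 1.01% of genes and 0 of the 10 under 0.05 unadjusted. Tlr6 in B-1b cells was 6.74, 6.72, 11.5 and 10.2 CPM in WT libraries, and only WT 1 and WT 2, the first 2 of these, overlapped the TET2-KO libraries. The fold change was -0.39 ± 0.36 and, without them, -0.72 ± 0.40.

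In B-2 cells 0 of 10 genes and 0 of 19786 genes passed, with 8.86% of genes at an unadjusted p under 0.05, and DESeq2 called 169 genes (0.855%) and none of the 10. The WT group held 2 libraries, and WT 1 lacked the Fcer2a level of B-2 cells. Tlr2 and Tlr6 were lower in all 4 TET2-KO libraries than in both WT libraries, as were 7.24% of genes. The fold change of Tlr2 was -1.22 ± 0.46 (adjusted p = 0.531) with both WT libraries and -0.70 ± 0.55 against WT 4 alone, and that of Tlr6 was -0.84 ± 0.47 and -1.07 ± 0.60. Ly86, also under 0.05 unadjusted as Tlr2 was, lay at 1160 and 694 CPM in WT and at 433 to 697 CPM in TET2-KO libraries, and gave -0.71 ± 0.29 (adjusted p = 0.531) and -0.30 ± 0.38 against WT 4. Tlr7 changed sign, from -0.58 ± 0.52 with both WT libraries to 0.50 ± 0.54 against WT 4. With WT 4 alone 0 genes passed, and 1.78% of genes and 0 of the 10 were under 0.05 unadjusted.

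For the other genes the TET2-KO and WT libraries of B-1 cells overlapped, and several fold changes turned sign without WT 1 and WT 2. Cd180 was 26.1, 28.5, 65.1 and 38.3 CPM in WT B-1a cells and 38.5, 23.9, 44.3 and 47.0 CPM in WT B-1b cells, with fold changes of 0.25 ± 0.30 and 0.31 ± 0.24, and of -0.16 ± 0.28 and 0.04 ± 0.19 without those libraries. Ly86 was 955, 1304, 958 and 960 CPM in WT B-1a and 1295, 817, 842 and 800 CPM in WT B-1b cells (-0.13 ± 0.17 and -0.15 ± 0.25, and without WT 1 and WT 2 -0.04 ± 0.20 and 0.02 ± 0.25). Tlr1 lay between 36.6 and 62.8 CPM in WT B-1a cells and between 30.4 and 55.9 CPM in WT B-1b cells, and its fold changes were -0.06 ± 0.19 and -0.07 ± 0.29, which became 0.11 ± 0.20 and -0.23 ± 0.32. Those of Tlr2 were 0.08 ± 0.19 and 0.03 ± 0.23 with all WT libraries, and -0.13 ± 0.22 and -0.15 ± 0.23 without WT 1 and WT 2. The levels of Tlr4 in WT libraries were 13.7 to 19.98 CPM over the 3 subsets, and Myd88 lay between 65.4 and 105 CPM. Over the 10 genes the median fold change was -0.10 in B-1a, -0.11 in B-1b and -0.53 in B-2 cells, beside 0.02, -0.01 and 0.18 over all genes. Without WT 1 and WT 2 the medians of the 10 genes were -0.14, -0.15 and -0.17, beside 0.02, 0.01 and 0.20 over all genes. In sorted bulk samples, fewer transcripts per cell and fewer cells that carry a transcript cannot be told apart.

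**Figure D4:**
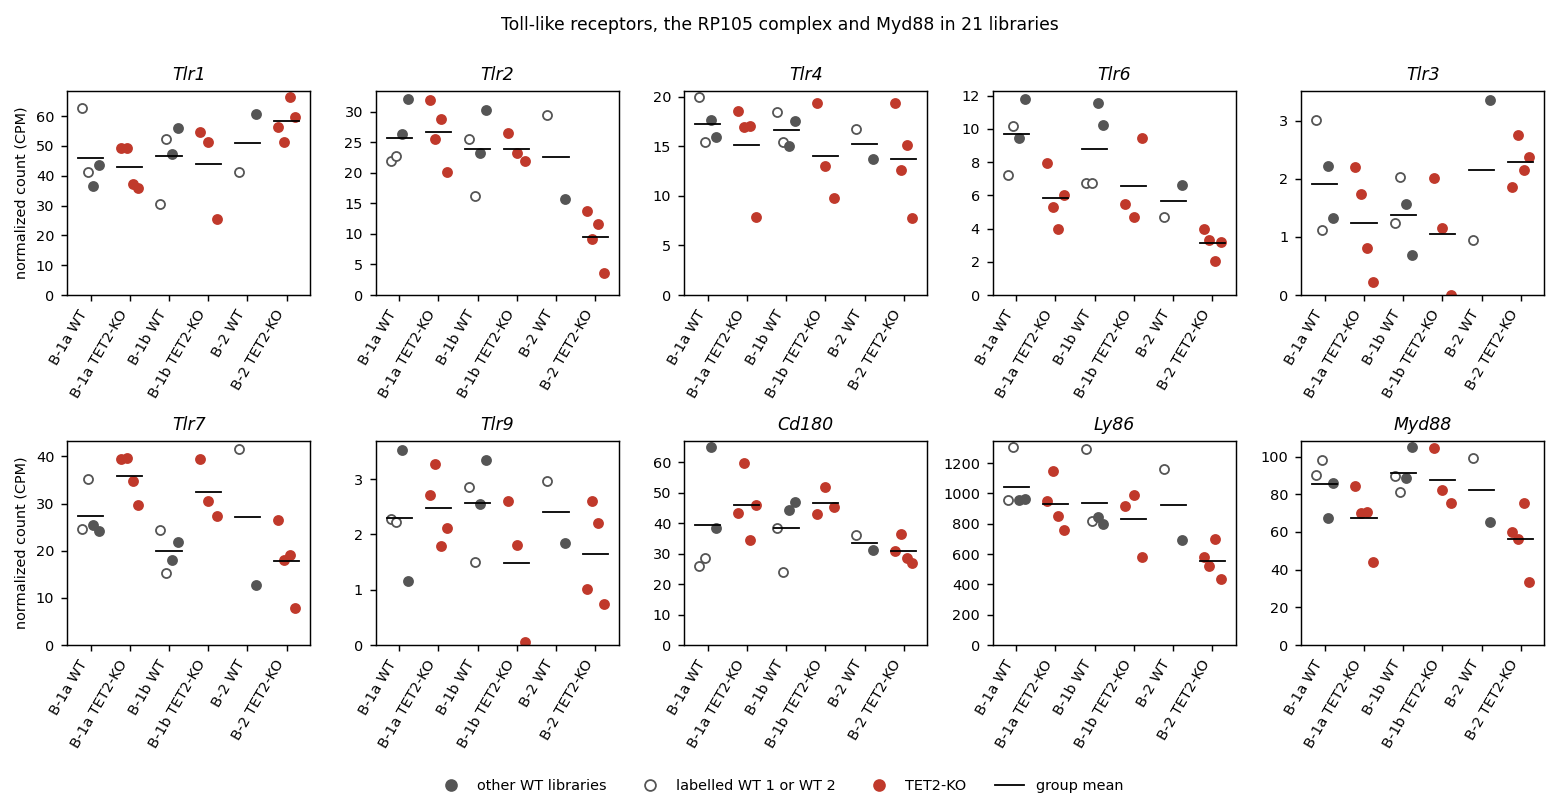
Level of the 10 genes (CPM) in each library by subset and genotype, with a line at the group mean, red points for TET2-KO, grey for WT and open points for libraries labelled WT 1 or WT 2. Tlr2 in TET2-KO B-2 cells (3.66 to 13.7 CPM) lies below the other groups, and Tlr7 in TET2-KO B-1b cells (27.4 to 39.5 CPM) lies above WT B-1b cells (15.2 to 24.4 CPM).

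**Figure D5:**
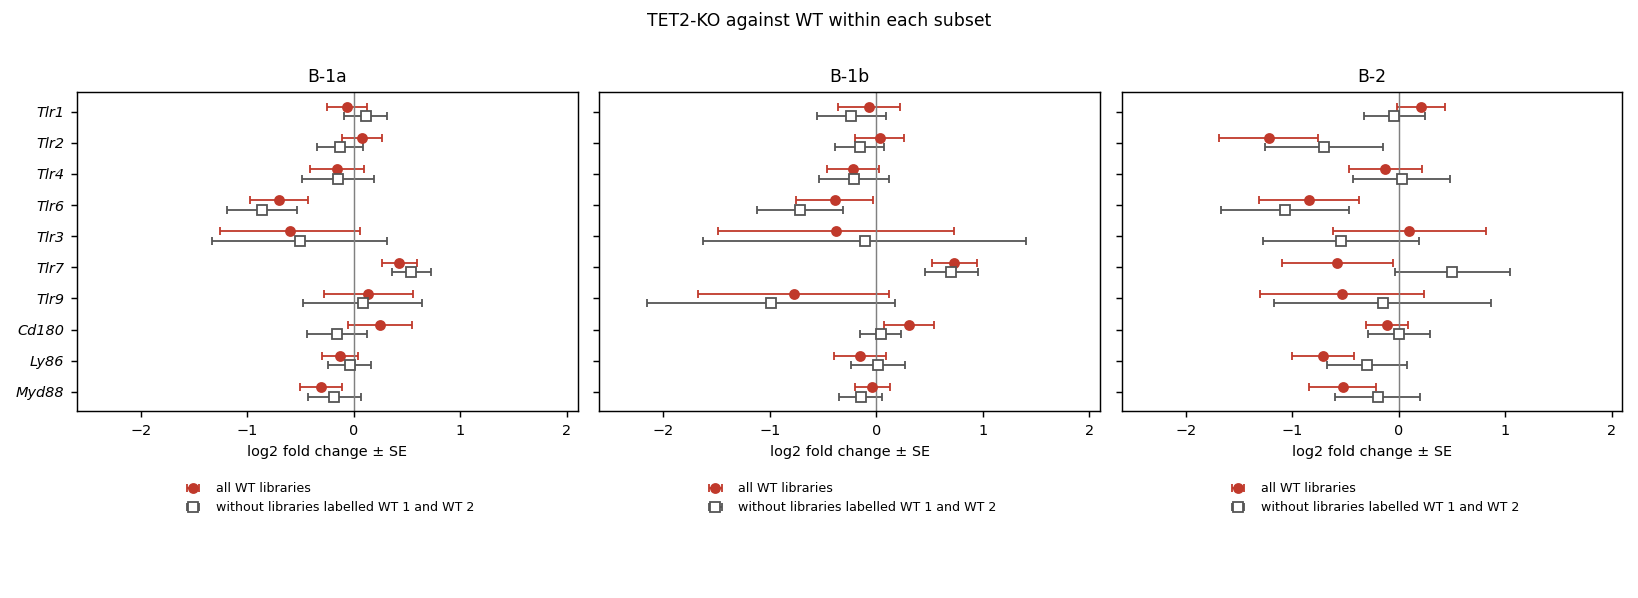
Log2 fold change ± SE (edgeR) of TET2-KO over WT for each gene in each of the 3 subsets, with all WT libraries (filled circles) and without those labelled WT 1 and WT 2 (open squares). Tlr7 stands at 0.42 and 0.54 in B-1a, at 0.73 and 0.70 in B-1b, and at -0.58 and 0.50 in B-2 cells.

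Around the receptors, 7 lists of pathway genes were read in the same fits. Of the 5 TIR adaptor genes, 2 were higher in TET2-KO B-1a than B-2 cells and the same 2 in B-1b cells: Ticam1, encoding TRIF, was at 18.9 to 36.1 CPM in B-1a, 23.3 to 27.7 CPM in B-1b and 6.57 to 12.9 CPM in B-2 libraries (1.39 ± 0.25 and 1.19 ± 0.27, adjusted p = 0.00313 and 0.0276), and Ticam2, encoding its bridging adaptor TRAM, was higher by 0.91 ± 0.24 and 1.11 ± 0.26 (adjusted p = 0.0385 and 0.0345). Among 9 chaperones and accessory proteins 1 passed in B-1a cells, Ly96 for MD-2 (81.1 to 205 CPM against 22.4 to 56.2 CPM in B-2 cells, 1.42 ± 0.35, adjusted p = 0.0284), and none in B-1b cells. Unc93b1, which carries the endosomal receptors to their compartment, was among those that did not pass, at 443 to 1150 CPM over all libraries. Of 8 negative regulators 1 was lower in B-1a than B-2 cells, Irak3 for the kinase-like inhibitor IRAK-M (17.6 to 26.5 CPM against 28.7 to 74.0 CPM, -1.22 ± 0.26, adjusted p = 0.0116). Of 13 NF-kB response genes, Cd80, a costimulatory ligand, was higher in B-1a and B-1b cells (1.63 ± 0.28 and 1.23 ± 0.29, adjusted p = 0.00191 and 0.0392), and Ccr7, a homing receptor that also marks B-2 cells, was lower in B-1a cells (-2.84 ± 0.38, adjusted p = 3.0863e-04). None of the 14 kinases and ubiquitin ligases, the 8 transcription factors or the 3 tested of the 5 other receptor genes passed. The share of all genes that passed was 5.82% for B-1a and 2.15% for B-1b over B-2 cells. In TET2-KO against WT cells, with or without WT 1 and WT 2, and between TET2-KO B-1a and B-1b cells, 0 genes of these lists passed. Between WT subsets 0 passed with all WT libraries, where 0 of all genes did.

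Without WT 1 and WT 2, with B-2 WT 4 as the lone B-2 library, members of 6 of the 7 lists passed between WT B-1a and B-2 cells, where 7.16% of all genes did. Those higher in B-1a cells were 1 of 13 NF-kB response genes, Cd80 (2.04 ± 0.26, adjusted p = 3.9534e-06), 1 of 9 chaperones and accessory proteins, Ly96 (1.27 ± 0.18, adjusted p = 1.4083e-05), 1 of 5 TIR adaptors, Ticam1 (1.01 ± 0.25, adjusted p = 0.00890), and 1 of 14 kinases and ubiquitin ligases. Lower were 2 NF-kB response genes, Ccr7 (-2.41 ± 0.17) and the activation marker Cd69 (-1.60 ± 0.16), 1 TIR adaptor, Pik3ap1 for BCAP (-0.99 ± 0.18), 2 of 8 transcription factors and 1 of 8 negative regulators. Ticam2 was not among those that passed. For B-1b over B-2 cells, where 5.53% of all genes passed, Cd80 (2.03 ± 0.26), the costimulatory ligand gene Cd86 (0.75 ± 0.17) and Ly96 (0.71 ± 0.17) were higher, and 3 NF-kB response genes, the cytokine gene Tnf (-1.40 ± 0.42), Ccr7 (-1.30 ± 0.17) and Cd69 (-1.29 ± 0.16), and 2 transcription factors were lower. Between B-1a and B-1b cells, where 3.22% of all genes passed, Ly96 was higher (0.56 ± 0.14) and Irak3 (-1.25 ± 0.15) and Ccr7 (-1.11 ± 0.14) were lower in B-1a cells.

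By correlation of log2 CPM over the 21 libraries, the genes most like Tlr2 among 9646 genes with a mean of at least 5 CPM were Coro1b (r = 0.96), Flot2 (0.96) and Sirpa (0.95). Coro1b encodes an actin regulator, Flot2 a membrane raft protein and Sirpa an inhibitory receptor. Without B-2 TET2-KO 4, where all 3 and Tlr2 were low, r was 0.91 for each of them over 20 libraries.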

How the data were processed

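RNA of 21 libraries of sorted peritoneal B cells was sequenced with paired-end reads after ultra-low input preparation, which the paper describes as amplified full-length cDNA and the labels as poly-T selected mRNA. Before deposit the authors ran fastp and then STAR on GRCm39, and featureCounts 1.6.1 summed fragments over the exons of each GENCODE vM32 gene, ignoring strand and multi-mapping fragments. The deposited values are whole counts, not normalized. Groups follow the labels. No label states that a number marks a shared mouse or day, so p-values measure the spread between these libraries.

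Under R 4.3.3, edgeR 4.0.16 with limma 3.58.1 was used for all comparisons. Counts were scaled by TMM, genes were filtered with filterByExpr by group, and the quasi-likelihood test was run in robust mode, with p-values adjusted over all genes by Benjamini and Hochberg and a threshold of 0.05. TET2-KO and WT were fitted within each subset, B-1a and B-1b cells together for the difference of their effects, and the 3 subsets within each genotype. All 10 genes passed the filter in all 10 comparisons. CPM use TMM factors of all 21 libraries, except the range given for 3 counts, which uses total counts alone. Correlations used log2 of CPM plus 0.5. The methods were tested on simulated counts. Alternatives were RLE size factors, TMM without immunoglobulin genes, no filter, a minimum of 10 counts in every library, DESeq2 1.42.0, 1 fit of all groups, a block for the replicate number, leaving out each library, and leaving out those labelled WT 1 or WT 2. The 10 genes, the pathway and marker lists and the last alternative were chosen with earlier results of these data known. Named pathway genes are at most 3 per direction and comparison, those with the largest fold change among genes that passed. Ticam2 was the fourth among those higher in B-1a than B-2 cells, and its value there is given because it is named for B-1b cells. Promoters were read from GRCm39 with GENCODE vM39, which gave symbols to 56310 genes and left 643 without. Protein sequences were not used here.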

Additional observations from a re-analysis of the deposited data

Results flagged for a closer look

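Within each group of 4 libraries, the gap of the highest or lowest library to its neighbour was divided by the range of the group and compared with the 95% critical value of Dixon's test. Of 40 such groups over the 10 genes, 4 passed, where chance gives about 1 in 20. Tlr4 was lowest in B-1a TET2-KO 4, at 7.86 CPM, where the others held 16.9 to 18.5 CPM. Tlr7 was highest in B-1a WT 2, at 35.2 CPM against 24.2 to 25.4 CPM. Ly86 was highest in the same library, at 1304 CPM against 955 to 960 CPM, and in B-1b WT 1, at 1295 CPM against 800 to 842 CPM. B-1a TET2-KO 4 also had the lowest sum of macrophage markers of its group (4887 CPM), and B-1a WT 2 and B-1b WT 1 are among the libraries whose Cd5 went against the label. The part of either in these values was not tested.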

How the results depend on the processing

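The number of the 10 genes that passed was 0 for TET2-KO against WT in each subset, for the difference of these effects between both B-1 subsets, for B-1a over B-1b cells in each genotype and for B-1b over B-2 cells in WT libraries, under every alternative run. For B-1a over B-2 cells of TET2-KO mice it was 1 (Tlr2), against 5.82% of all genes. It was 3 (Tlr2, Tlr7 and Ly86) without a filter on low counts (3.8% of all genes) and with DESeq2 (14.2%). With the replicate number as a block it was 4 (Cd180 added), against 8.83% of all genes. When each library was left out it was 1 to 3, against 3.57% to 9.43% of all genes. For B-1b over B-2 cells it was 0, against 2.15% of all genes. It was 1 (Tlr2) without a filter (1.94% of all genes) and with at least 10 counts in every library (3.7%). It was also 1 (Tlr2) with the block (3.59%) and with DESeq2 (12.1%). When each library was left out it was 0 to 1, against 1.04% to 4.16% of all genes. For B-1a over B-2 cells in WT libraries it was 0, and 3 without those labelled WT 1 and WT 2, where Tlr7 went from -0.02 to 0.95. The WT 1 and WT 2 libraries carry markers of other subsets, and the cause of the change was not tested.

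Counts over all genes moved more. In TET2-KO against WT B-1a cells 7 genes passed, and 318 without a filter, 186 with DESeq2, 80 in 1 fit of all groups, 48 with the block, 0 without WT 1 and WT 2, and 0 to 6 when each library was left out, with 0 without TET2-KO 2 or 3 and 1, 4, 2 and 2 without WT 2, WT 3, WT 4 or TET2-KO 4. Without a filter 131 genes passed in B-1b, 167 in B-2 and 144 for the difference of effects, and 107, 63 and 71 between WT subsets, where all were 0. DESeq2 called 60, 169 and 1 of the first 3. Leaving out WT 4 left B-2 WT 1, whose Fcer2a went against its label, as the lone WT library of B-2 cells. The median log2 fold change of all genes was then 1.10, beside 0.18 with both WT libraries. Without WT 1 and WT 2 the counts between WT subsets were 1334, 1030 and 599. For TET2-KO B-1a over B-2, B-1b over B-2 and B-1a over B-1b cells, the counts of 1080, 399 and 38 became 1699, 870 and 123 without a filter, 3478, 2872 and 141 with DESeq2, 1638, 667 and 103 with the block, and 780, 7 and 6 in 1 fit, and they ran from 608 to 2015, 177 to 768 and 15 to 57 when each library was left out. RLE size factors moved the median of all genes from -0.10 to -0.20 for B-1b over B-2 cells and that of the 10 genes from 0.55 to 0.45.

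Libraries with the same number in different TET2-KO subsets deviated together only in part. Their r ran from -0.10 to 0.41, with a median of 0.17, and was below 0.1 for some pairs. Pairs with different numbers had r from -0.296 to 0.253 (median -0.065). In WT libraries the medians were 0.236 for equal and -0.0667 for different numbers. Pairs of equal number were thus higher by median, with overlapping ranges. The WT groups include the 5 libraries that went against their labels. The highest r of WT pairs, 0.645, joined B-1a WT 1 and B-1b WT 2, of different numbers. The 2 B-2 WT libraries deviate from their mean by equal and opposite amounts, so the WT medians cannot decide on pairing. The number alone does not show pairing, whether it marks a shared mouse or day was not tested, and the block is given here once. Tlr3 and Tlr9 had at most 62 and 63 counts in a library, and Tlr3 ran from 0.228 to 2.21 CPM among TET2-KO B-1a libraries of 15937009 to 18426013 total counts. B-1a TET2-KO 4, the library at 0.228 CPM, had 18941 genes with a count, against 26267 to 28140 in the rest of its group. What depth or the number of genes with a count adds to that spread was not tested.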
